A study of Mus musculus with 2 samples.

Results

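The genes described here encode the proteins of the cytosolic ribosome in mouse. They were chosen by symbol: autosomal protein-coding genes named Rps or Rpl with a number (the suffixes a, x and l allowed), together with Rplp0, Rplp1, Rplp2 and Rpsa, without pseudogenes and without the Rps6 kinases. Of the 16190 genes with counts, 77 fitted this rule, 31 of the small ribosomal subunit and 46 of the large one. The testis retrogene Rpl10l and the paralogue Rpl39l also matched but had no row in the table. The 4 X-linked genes Rpl10, Rpl39, Rps4x and Rpl36a were left out by the rule and are given with related lists further on.

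Total RNA was sequenced from satellite cells, the stem cells of skeletal muscle, isolated from the tibialis anterior muscle of C57BL/6 mice. 1 library came from Cipc-scko mice, in which Cipc is deleted in satellite cells, and 1 library came from Cipc-flox/flox mice, which carry the floxed Cipc alleles. The sample titles name them Cipc-/- and Cipc+/+. Cipc is named for CLOCK-interacting pacemaker, a protein that represses CLOCK and BMAL1 in the circadian clock. The series title concerns mdx mice, but the labels of these samples name no dystrophin allele. The sources used here give no Cre driver, no age or sex of the mice and no word on pooling of animals. Each group is 1 library, so none of the differences has a replicate check, and all values describe these 2 libraries only.

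A ribosome joins a small subunit, which reads the messenger RNA, to a large subunit, which forms the peptide bond. Most ribosomal proteins are needed in equal numbers, and their genes are among the most strongly transcribed in growing cells. Their messenger RNAs begin with a C and a run of pyrimidines, the terminal oligopyrimidine (TOP) tract, through which the mTOR pathway and Larp1 control their translation. Ribosomal protein messenger RNAs have also been copied back into mammalian genomes many times. The resulting intronless copies, mostly processed pseudogenes, can be nearly identical to the parent gene in the transcribed sequence. Activated satellite cells are known to enlarge and to raise ribosome production when they leave quiescence.

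The Cipc-scko library held 16830168 counts, the Cipc-flox/flox library 16145870. Cipc itself had 594 counts in Cipc-scko against 1907 in Cipc-flox/flox, a log2 difference of -1.61 (95% counting interval -1.74 to -1.47). Xist had 4 counts in Cipc-scko against 3898 in Cipc-flox/flox, and the Y-linked Ddx3y had 511 counts in Cipc-scko against 0 in Cipc-flox/flox, so the sex of the source animals cannot be told apart from genotype. Pax7, the defining satellite cell factor, stood at 62.2 CPM, the counts scaled per library, in Cipc-scko against 2.54 CPM in Cipc-flox/flox. Of 9 measured satellite cell markers 3 were called higher (Pax7, Myod1 and Cxcr4) and 1 lower (Cd34, with 3 counts in Cipc-scko against 427 in Cipc-flox/flox), with summed levels of 3579 CPM in Cipc-scko against 2002 CPM in Cipc-flox/flox; Calcr had no row. All 11 markers of muscle differentiation, such as Myog and Acta1, were higher in Cipc-scko, with a summed level of 25681 CPM in Cipc-scko against 2065 CPM in Cipc-flox/flox; Myh7 was at 0 in Cipc-flox/flox. Of 5 measured pericyte and smooth muscle markers 4 were higher and 1 lower in Cipc-scko, with summed levels of 12872 CPM in Cipc-scko against 627 CPM in Cipc-flox/flox. Acta2 alone made up most of both sums, at 12432 CPM in Cipc-scko against 513 CPM in Cipc-flox/flox. The lower gene was Cspg4, with 7 counts in Cipc-scko against 491 in Cipc-flox/flox. Fibroblast markers summed to 3031 CPM in Cipc-scko against 1441 CPM in Cipc-flox/flox, with 2 of 5 higher and 2 lower. Col3a1 made up most of both sums, at 2177 CPM in Cipc-scko against 850 CPM in Cipc-flox/flox, and Col1a1 was the other gene called higher. The lower genes were Pdgfra, with 11 counts in Cipc-scko against 147 in Cipc-flox/flox, and Dcn, with 1 against 142. Ly6a was not called, and Lum and Dpt had no row. Macrophage markers summed to 6.17 CPM in Cipc-scko against 47.3 CPM in Cipc-flox/flox, and Ptprc, Adgre1 and Itgam had no row. Cd68 and Cd14 were lower in Cipc-scko. Csf1r was higher, with 37 counts in Cipc-scko against 9 in Cipc-flox/flox, and Lyz2 had 9 in Cipc-scko against 10 in Cipc-flox/flox. Endothelial markers summed to 8.22 CPM in Cipc-scko against 0.886 CPM in Cipc-flox/flox, and lymphocyte markers to 0.125 CPM in Cipc-scko against 0 in Cipc-flox/flox. Among the endothelial markers Kdr had 112 counts in Cipc-scko against 2 in Cipc-flox/flox, and Pecam1 had 19 against 0. Tek went the other way, with 0 in Cipc-scko against 11 in Cipc-flox/flox, and Cdh5 had 1 against 2. The part of these cell-state and cell-type differences in the ribosomal protein results was not tested. In bulk RNA, fewer cells of a type and less RNA per cell cannot be told apart.

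Ribosomal protein genes took a larger share of the Cipc-scko library. They held 582981 counts or 3.46% of all counts in Cipc-scko (exact binomial interval 3.46% to 3.47%) and 394153 counts or 2.44% in Cipc-flox/flox (2.43% to 2.45%). After TMM scaling, which sets the libraries to a common size from the bulk of the genes, the summed counts differed by a log2 ratio of 0.64 (0.64 to 0.65), or 1.56-fold. By their own counts, without copies, the 31 small-subunit genes together differed by 0.80 (0.79 to 0.80) and the 46 large-subunit genes by 0.52 (0.52 to 0.53). The small-subunit sum depends in part on Rps2, which had 23639 counts in Cipc-scko against 403 in Cipc-flox/flox. With its near-identical copies, Rps2 had 23714 counts in Cipc-scko against 29097 in Cipc-flox/flox, as given below. The subunits were not summed with copies. All such intervals cover counting error only, and the sources used here name no molecular identifiers, so reads need not be independent.

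Gene by gene, most ratios were small and positive. Past a filter on low counts (a CPM of 1 or more in either library and 20 or more counts in total) 76 of the 77 genes remained; Rpl3l, the muscle paralogue of Rpl3, had 3 counts in Cipc-scko against 4 in Cipc-flox/flox and did not pass. A gene was called when the libraries differed at least 2-fold and the counting interval excluded equality. Of the 76 genes 13 were called higher in Cipc-scko and 1 lower. Among all 12874 genes past the filter 37.2% were called in either direction, 21.2% higher and 15.9% lower. Among genes with a mean of at least 100 CPM, a level closer to that of these genes, 15.3% were called higher and 13.9% lower. The share of ribosomal protein genes called higher lay near the background. At a limit of 1.5-fold 34 were called higher and 3 lower, where 29% of all genes were higher and 25.8% lower, and at 4-fold 7 were higher and 0 lower, where 12.5% of all genes were higher and 6.68% lower. The median log2 ratio was 0.49 over the ribosomal protein genes (quartiles 0.15 and 0.88), against 0.01 over all genes past the filter and -0.08 over the other genes of at least 100 CPM. 60 ribosomal protein genes lay above 0 and 16 below. The counting interval excluded equality for 54 genes on the higher side and 10 on the lower side, and it included equality for 12. The median was 0.50 in the small subunit, with 4 genes called higher and 0 lower, and 0.48 in the large subunit, with 9 called higher and 1 lower.

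**Figure D1:**
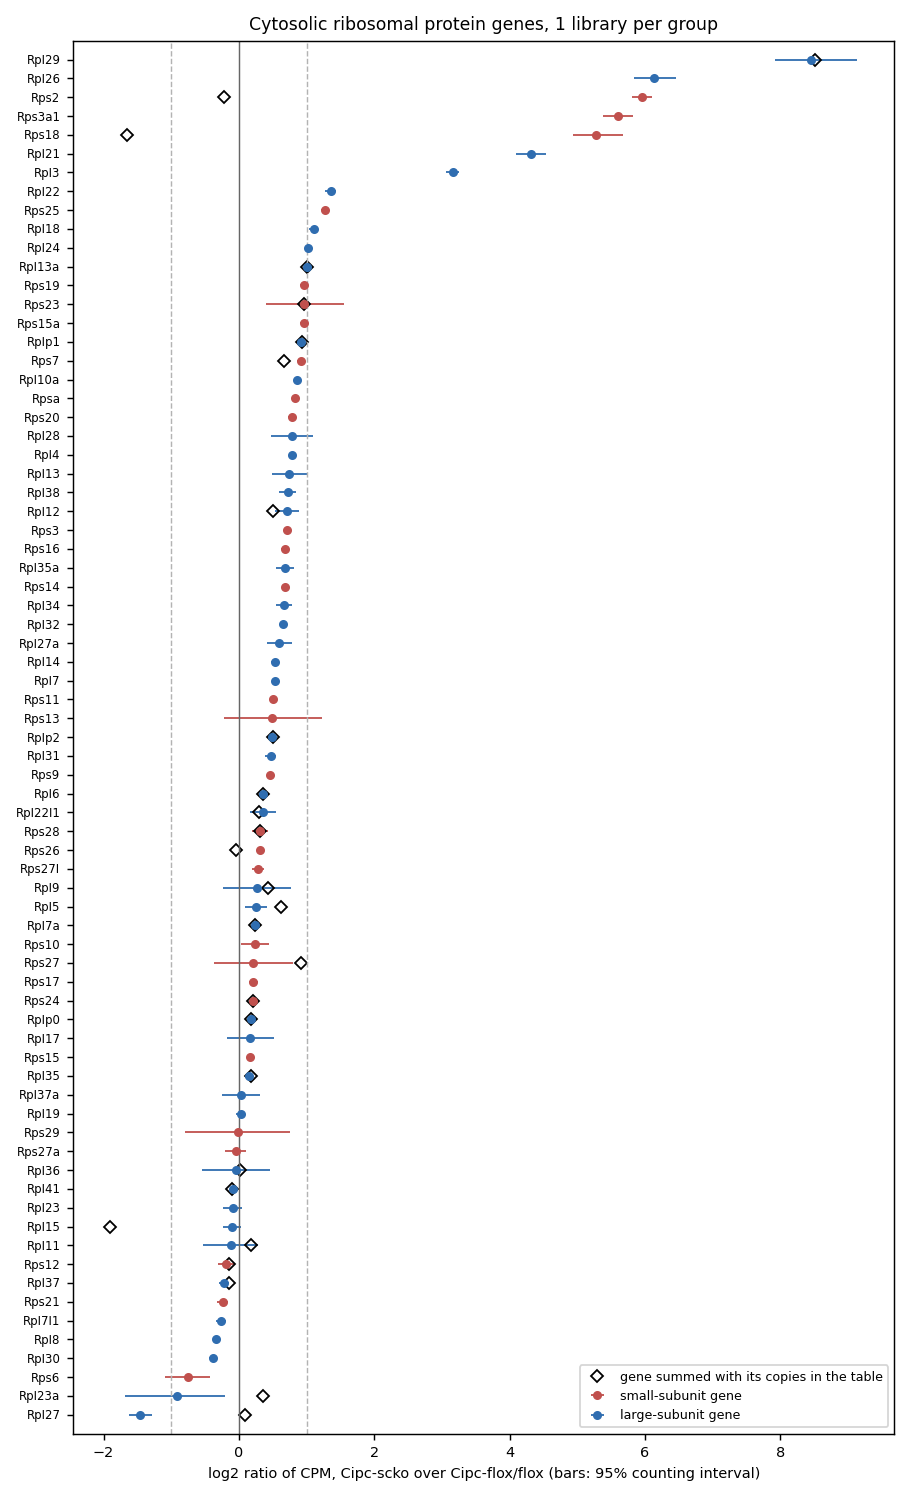
Log2 ratio of CPM in Cipc-scko over Cipc-flox/flox for 73 of the 76 ribosomal protein genes past the filter (filled points, with 95% counting intervals as bars; small and large subunit in different colours), from the highest at the top to the lowest. Open diamonds give the ratio after summing a gene with its near-identical copies in the table, and dashed lines mark 2-fold. The diamonds of Rps2, Rps18, Rpl15, Rpl27 and Rpl23a lie far from their points.

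Among the small-subunit genes, the 4 called higher were Rps2, Rps3a1, Rps18 and Rps25. Rps2 (chr17:24718116-24721929, GRCm38), a protein near the messenger RNA entry site, had 23639 counts in Cipc-scko against 403 in Cipc-flox/flox, a log2 difference of 5.95 (5.81 to 6.10). Rps3a1 (chr3:86137940-86142702) had 7951 counts in Cipc-scko against 173 in Cipc-flox/flox, a log2 difference of 5.59 (5.38 to 5.82). Rps18 (chr17:33951999-33956001), a protein of the subunit head, had 2378 counts in Cipc-scko against 64 in Cipc-flox/flox, a log2 difference of 5.28 (4.93 to 5.67). These 3 ratios stood far above the rest of the subunit. Rps25, known for its part in translation from viral internal ribosome entry sites, had 6915 counts in Cipc-scko against 3013 in Cipc-flox/flox, a log2 difference of 1.27 (1.21 to 1.34).

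Below the limit of 2-fold, many small-subunit genes lay between 0.5 and 1 on the log2 scale. Rps19, the first gene linked to Diamond-Blackfan anaemia in humans, had 6496 counts in Cipc-scko against 3523 in Cipc-flox/flox (0.96, 0.90 to 1.02). Rpsa, also known as the laminin receptor precursor, had 47795 counts in Cipc-scko against 28510 in Cipc-flox/flox (0.82, 0.80 to 0.84). Both differed by less than 2-fold, with an interval far narrower than the difference. Rps3, a protein of the messenger RNA entry channel, had 22872 counts in Cipc-scko against 14788 in Cipc-flox/flox (0.71, 0.68 to 0.74), and Rps14, deleted in the human 5q- syndrome, had 15703 counts in Cipc-scko against 10339 in Cipc-flox/flox (0.68, 0.64 to 0.72). Other abundant genes of the subunit were nearly level: Rps15 had 22095 counts in Cipc-scko against 20890 in Cipc-flox/flox (0.16, 0.13 to 0.18). By own counts, Rps6, the substrate of the S6 kinases, had the lowest ratio in the subunit, with 118 counts in Cipc-scko against 211 in Cipc-flox/flox (-0.76, -1.10 to -0.43). Its level was low, at 7.35 CPM in Cipc-scko against 12.5 CPM in Cipc-flox/flox, and none of its 11 annotated near-identical copies had a row. Summed with copies, Rps18 lay lower, as given below. Rps12 and Rps21 also lay below 0 with intervals that excluded equality (-0.19 and -0.24), and Rps29, at 29 counts in Cipc-scko against 31 in Cipc-flox/flox, was too thinly counted to place (-0.02, -0.80 to 0.76).

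In the large subunit the ratios of 4 genes exceeded 8-fold. Rpl29 (chr9:106429454-106431568), a protein also described as heparin-binding, had 8186 counts in Cipc-scko against 24 in Cipc-flox/flox, a log2 difference of 8.46 (7.92 to 9.13). Rpl26 (chr11:68901583-68906989), known to bind the p53 messenger RNA, had 6069 counts in Cipc-scko against 91 in Cipc-flox/flox, a log2 difference of 6.13 (5.84 to 6.45). Rpl21 (chr5:146832890-146837032) had 3468 counts in Cipc-scko against 184 in Cipc-flox/flox, a log2 difference of 4.31 (4.10 to 4.53). In each, nearly all counts of the 2 libraries came from Cipc-scko. Rpl3 (chr15:80077791-80091868), which reaches the peptidyl transferase centre, had 8205 counts in Cipc-scko against 968 in Cipc-flox/flox, a log2 difference of 3.16 (3.06 to 3.26).

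A further 5 large-subunit genes, 4 of them described here, were called at little more than 2-fold. Rpl22 had 4165 counts in Cipc-scko against 1713 in Cipc-flox/flox (1.36, 1.28 to 1.44). Rpl18 had 4808 counts in Cipc-scko against 2362 in Cipc-flox/flox (1.10, 1.03 to 1.17). Rpl24, of the bridge between the subunits, had 9615 counts in Cipc-scko against 4985 in Cipc-flox/flox (1.02, 0.97 to 1.07). Rpl13a, which in humans leaves the ribosome on interferon signalling to repress inflammatory messenger RNAs, had 25623 counts in Cipc-scko against 13505 in Cipc-flox/flox (1.0, 0.97 to 1.03). The last 2 sat at the limit of 2-fold: scaling by total counts gave 0.89 for Rpl24 and 0.86 for Rpl13a and ended both calls, and that of Rpl18, at 0.97. Rpl27 (chr11:101442298-101445529) was the 1 gene called lower, with 397 counts in Cipc-scko against 1149 in Cipc-flox/flox (-1.46, -1.63 to -1.29).

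Large-subunit genes not called covered both directions. Rpl4, whose loop lines the peptide exit tunnel, had 24272 counts in Cipc-scko against 14902 in Cipc-flox/flox (0.78, 0.75 to 0.81). Rpl7 had 16688 counts in Cipc-scko against 12226 in Cipc-flox/flox (0.53, 0.49 to 0.56), and Rpl32 had 14238 counts in Cipc-scko against 9592 in Cipc-flox/flox (0.65, 0.61 to 0.68). On the other side, Rpl8, one of the proteins closest to the peptidyl transferase centre, had 26806 counts in Cipc-scko against 35927 in Cipc-flox/flox (-0.35, -0.37 to -0.32). Rpl30 had 4399 counts in Cipc-scko against 6059 in Cipc-flox/flox (-0.39, -0.44 to -0.33). Both are on chromosome 15 and are taken up again with the chromosomes. Rpl41, which encodes the smallest ribosomal protein, had 14868 counts in Cipc-scko against 16739 in Cipc-flox/flox (-0.09, -0.13 to -0.06), and Rpl19 had 3656 counts in Cipc-scko against 3792 in Cipc-flox/flox (0.02, -0.04 to 0.09). Rpl23a was lowest among the genes not called, on only 25 counts in Cipc-scko against 50 in Cipc-flox/flox (-0.91, -1.68 to -0.20).

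**Figure D2:**
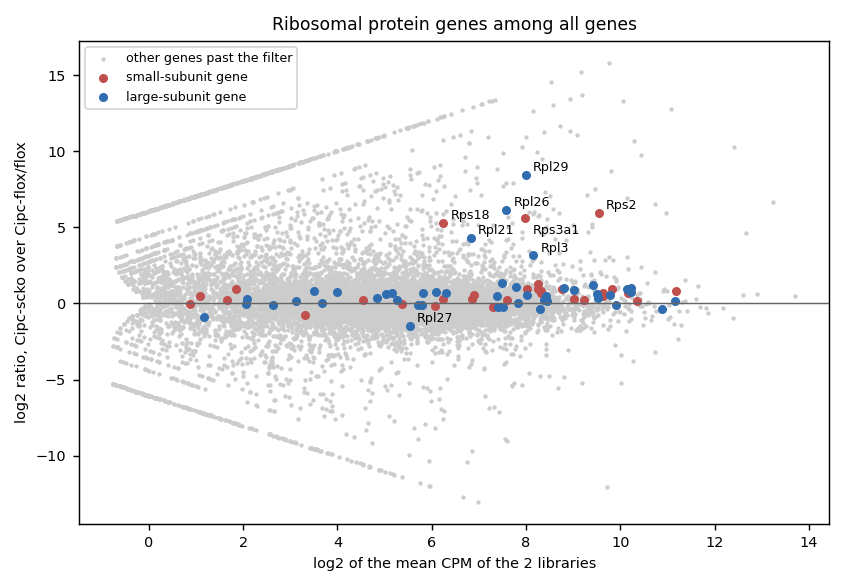
Log2 ratio, Cipc-scko over Cipc-flox/flox, against the log2 of the mean CPM of both libraries, for all 12874 genes past the filter (grey), with small-subunit and large-subunit ribosomal protein genes in colour. Most ribosomal protein genes form a narrow band just above 0 (median 0.49), and the 7 genes over 8-fold higher and Rpl27 are named.

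The stalk of the large subunit, which recruits the translation factors that split GTP, is built from Rplp0 and pairs of Rplp1 and Rplp2. Rplp0 had 38970 counts in Cipc-scko against 36349 in Cipc-flox/flox (0.18, 0.16 to 0.20). Rplp1 had 23680 counts in Cipc-scko against 13202 in Cipc-flox/flox (0.92, 0.89 to 0.95), and Rplp2 had 6387 counts in Cipc-scko against 4820 in Cipc-flox/flox (0.48, 0.43 to 0.54). The 3 ratios did not overlap in their counting intervals, although all lay above 0. Rpl5 and Rpl11, which travel with 5S ribosomal RNA and bind Mdm2 when ribosome assembly fails, had few counts of their own: 670 in Cipc-scko against 594 in Cipc-flox/flox for Rpl5 (0.25, 0.09 to 0.41), and 95 in Cipc-scko against 109 in Cipc-flox/flox for Rpl11 (-0.12, -0.53 to 0.29).

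By own counts, paralogues that can replace a standard protein stood below their partners per kilobase of coding sequence in 3 of 4 pairs. Rpl22l1 had 514 counts in Cipc-scko against 424 in Cipc-flox/flox (0.35, 0.17 to 0.54), below Rpl22 in ratio. Rps27l, a p53 target, had 2024 counts in Cipc-scko against 1753 in Cipc-flox/flox (0.28, 0.19 to 0.38), and Rpl7l1 had 2485 counts in Cipc-scko against 3145 in Cipc-flox/flox (-0.26, -0.34 to -0.19). Rps27 itself had only 54 counts in Cipc-scko against 49 in Cipc-flox/flox (0.21, -0.37 to 0.80). Most of the Rps27 family's counts stood on another locus, as given next. Summed with that locus, Rps27 stood at 1981 CPM per kilobase in Cipc-scko against 1050 in Cipc-flox/flox. That was above Rps27l, the exception by own counts, at 500 in Cipc-scko against 411 in Cipc-flox/flox.

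Near-identical copies bear on nearly every gene described. A search of the GENCODE vM21 transcripts found 633 loci with at least 95% identity over at least 80% of the shorter transcript, for 74 of the 77 genes. The median gene had 6 such copies and Rpl21 the most, 61. Of these loci 38 had a row in the count table, and they belonged to 29 of the genes. Together the 38 copies held 146084 counts or 0.868% of all counts in Cipc-scko against 160979 counts or 0.997% in Cipc-flox/flox, a log2 difference of -0.06 (-0.07 to -0.05). Not all of these copies are annotated as pseudogenes. Wdr89, a protein-coding gene by annotation, was summed with Rplp2 and had 3257 counts in Cipc-scko against 2361 in Cipc-flox/flox. All its counts enter the totals. In 14 genes the copies held more than 50% of the summed counts in at least 1 library. The sources used here do not say how reads that fit several loci were counted, so the separate values of a gene and its copies are uncertain, while their sum is less so.

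For some genes the copy took nearly all counts in both libraries. Rps27rt, a retrogene whose coding sequence equals that of Rps27 over all 255 bases, had 7960 counts in Cipc-scko against 4428 in Cipc-flox/flox, and the sum with Rps27 differed by 0.92. Gm10275 equals Rpl12 over 498 coding bases and had 21787 counts in Cipc-scko against 16366 in Cipc-flox/flox; with Rpl12, at 714 counts in Cipc-scko against 460 in Cipc-flox/flox, the sum differed by 0.50. Gm15500 equals Rpl5 over 894 coding bases and had 15045 counts in Cipc-scko against 10234 in Cipc-flox/flox, and the sum with Rpl5 differed by 0.61. In these families the sum lay above 0, as the parent gene did. The sum reversed the sign of Rpl23a, at 0.36 with Rpl23a-ps3 (7210 counts in Cipc-scko against 5910 in Cipc-flox/flox), and of Rpl11, at 0.18 with Gm10036 (4213 counts in Cipc-scko against 3913 in Cipc-flox/flox). Rpl27 was no longer lower: with Rpl27-ps3, at 8819 counts in Cipc-scko against 7950 in Cipc-flox/flox and identical over 411 coding bases, the sum was 9216 counts in Cipc-scko against 9099 in Cipc-flox/flox (0.09, 0.05 to 0.14).

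In 4 genes the copies' share of the summed counts differed by more than 10 percentage points between the libraries, while in the other 18 genes with a sizeable copy it differed by 8.32 points or less. For Rps2 the copies held 0.316% of the sum in Cipc-scko against 98.6% in Cipc-flox/flox, where Rps2-ps10 alone had 6 counts in Cipc-scko against 28647 in Cipc-flox/flox. Summed, Rps2 and its copies had 23714 counts in Cipc-scko against 29097 in Cipc-flox/flox (-0.22, -0.24 to -0.19), so the large ratio was lost. For Rps18 the copies held 30.6% in Cipc-scko against 99.4% in Cipc-flox/flox: Gm10260 had 964 counts in Cipc-scko against 10611 in Cipc-flox/flox, and Rps18-ps3 had 83 in Cipc-scko against 676 in Cipc-flox/flox. The sum, 3425 counts in Cipc-scko against 11351 in Cipc-flox/flox, was lower in Cipc-scko (-1.65, -1.71 to -1.60), the opposite of Rps18 alone. For Rpl15 the copies held 2.17% in Cipc-scko against 71.9% in Cipc-flox/flox, with Gm10020 at 19 counts in Cipc-scko against 2476 in Cipc-flox/flox. Rpl15 alone had 856 counts in Cipc-scko against 968 in Cipc-flox/flox (-0.10, -0.24 to 0.03), and the sum, 875 counts in Cipc-scko against 3444 in Cipc-flox/flox, was lower (-1.90, -2.01 to -1.79). For Rps26 the copies held 39.4% in Cipc-scko against 52.6% in Cipc-flox/flox, with Rps26-ps1 at 5994 counts in Cipc-scko against 8715 in Cipc-flox/flox. Rps26 alone had 9215 counts in Cipc-scko against 7867 in Cipc-flox/flox (0.30, 0.26 to 0.35), and the sum differed by -0.05 (-0.08 to -0.02).

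The coding stretches below, from the GENCODE vM21 transcripts, show how few bases separate a gene from such a copy, with the bases that differ in capitals. Positions are counted from 1 at the A of the start codon, the parent gene's base comes first and the copy's last. Rps18 (chromosome 17) differs from Gm10260 (chromosome 13) by T186C, A337C, G371A and G431A over 459 bases, and from Rps18-ps3 (chromosome 8) by G181C, A337C and C430T, of which a stretch of 120 bases ending at base 444 is shown.
Rps18: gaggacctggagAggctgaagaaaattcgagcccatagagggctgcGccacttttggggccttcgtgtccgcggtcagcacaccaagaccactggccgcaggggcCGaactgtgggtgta
Gm10260: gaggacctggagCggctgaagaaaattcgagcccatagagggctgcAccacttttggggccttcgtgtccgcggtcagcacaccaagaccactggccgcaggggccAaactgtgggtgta
Rps18-ps3: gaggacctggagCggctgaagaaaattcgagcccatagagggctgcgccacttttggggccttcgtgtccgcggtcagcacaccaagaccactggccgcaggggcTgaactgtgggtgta
Rpl15 (chromosome 14) differs from Gm10020 (chromosome 15) by A156G and C202A, with 75 bases shown that end at base 219.
Rpl15: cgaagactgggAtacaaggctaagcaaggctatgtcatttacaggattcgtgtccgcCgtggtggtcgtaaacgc
Gm10020: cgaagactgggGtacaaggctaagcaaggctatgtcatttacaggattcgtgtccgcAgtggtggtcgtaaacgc
Rps26 (chromosome 10) differs from Rps26-ps1 (chromosome 8) by C30T and G270A, with 40 bases shown that end at base 59.
Rps26: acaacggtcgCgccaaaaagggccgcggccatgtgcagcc
Rps26-ps1: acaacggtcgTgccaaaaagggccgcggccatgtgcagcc
Outside these positions the aligned coding sequences are the same, up to a run of 410 identical bases in the Rpl15 pair. Long stretches are thus shared by both loci.

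Rps7 had 2 large copies, both higher in Cipc-scko but by very different amounts. Rps7 itself had 5460 counts in Cipc-scko against 3054 in Cipc-flox/flox (0.91, 0.85 to 0.98). Gm6472, on chromosome X, had 9874 counts in Cipc-scko against 9501 in Cipc-flox/flox (0.13), whereas Gm9493, on chromosome 19, had 4394 counts in Cipc-scko against 615 in Cipc-flox/flox and was called higher (2.91, 2.79 to 3.04). The summed counts were 19728 in Cipc-scko against 13170 in Cipc-flox/flox (0.66). Gm9493 differs from Rps7 (chromosome 12) by C39T, G317A and G375A, with 80 bases shown that end at base 384.
Rps7: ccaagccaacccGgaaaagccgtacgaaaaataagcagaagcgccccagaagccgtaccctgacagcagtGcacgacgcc
Gm9493: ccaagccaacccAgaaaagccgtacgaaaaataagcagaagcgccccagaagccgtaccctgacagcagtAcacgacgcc

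Other abundant copies lay on both sides of 0. Rpl9-ps6 had 7634 counts in Cipc-scko against 5987 in Cipc-flox/flox, and Gm8730 (of Rplp0) had 18863 in Cipc-scko against 17452 in Cipc-flox/flox. Rpl37rt had 5850 counts in Cipc-scko against 6610 in Cipc-flox/flox (-0.10, -0.15 to -0.05), and Gm10076 (of Rpl41) had 1580 in Cipc-scko against 1886 in Cipc-flox/flox (-0.18, -0.28 to -0.08). Rpl29 kept its large ratio, since its copy Gm10709 had 667 counts in Cipc-scko against 1 in Cipc-flox/flox and the sum differed by 8.52. Only 2 of the 33 annotated copies of Rpl29 had a row, so the others could not be summed. The sums above have the same limit, with rows for 4 of 26 copies of Rps2, 2 of 24 of Rps18 and 1 of 12 of Rpl15. Rpl26, Rps3a1, Rpl21 and Rpl3 had no copy in the table, so their ratios had nothing to be summed with, though each has annotated copies elsewhere in the genome (6 for Rpl26 and for Rps3a1, 61 for Rpl21 and 7 for Rpl3).

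**Figure D3:**
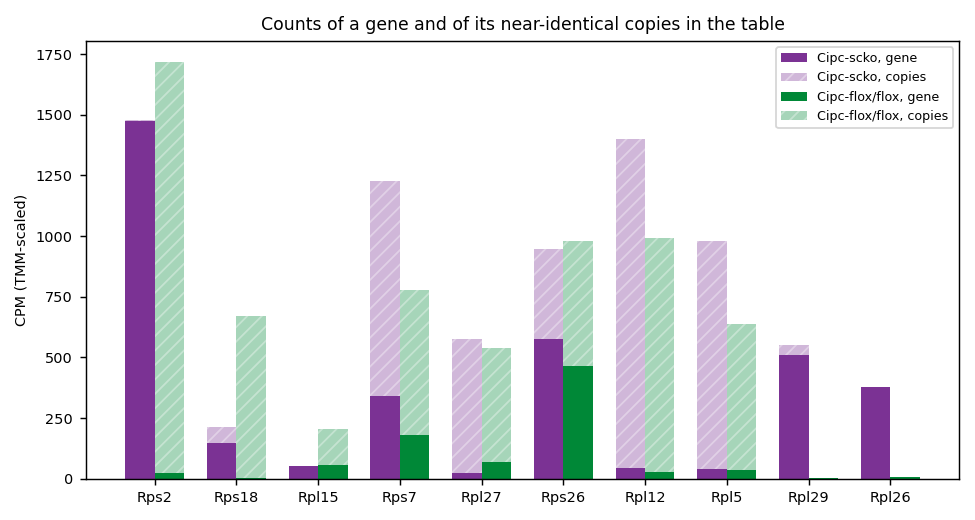
CPM after TMM scaling of 10 ribosomal protein genes (solid) and of their near-identical copies in the table (hatched, stacked on top), with Cipc-scko left and Cipc-flox/flox right in each pair. For Rps2, Rps18 and Rpl15 the copies hold most of the Cipc-flox/flox bar. Of the Cipc-scko bar they hold little for Rps2 and Rpl15 and 30.6% for Rps18. For Rpl12 and Rpl5 the copies hold most of both bars, and Rpl29 and Rpl26 are near 0 in Cipc-flox/flox with or without copies.

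Summed with its copies, the family gave nearly the same median and a smaller total difference. The 77 genes and their copies held 4.33% of all counts in Cipc-scko against 3.44% in Cipc-flox/flox, a log2 difference of 0.47 (0.46 to 0.47) or 1.38-fold. 11 genes were then called higher and 2 lower, with a median of 0.50 and 61 genes above 0. The 64 genes not called after summing differed together, copies included, by 0.38 (0.37 to 0.38). The 47 genes with no copy in the table had a median of 0.66, with 9 called higher and 0 lower. Beside both sets of calls, 21.2% of all genes past the filter were called higher and 15.9% lower, without summing. Among genes with a mean of at least 100 CPM the shares were 15.3% and 13.9%. The 29 genes with a copy in the table had a median of 0.26 alone and 0.29 after summing.

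Levels differed widely among genes whose products, the pairs of Rplp1 and Rplp2 aside, are mostly needed in equal numbers. Per kilobase of coding sequence, the median level was 523 CPM in Cipc-scko against 317 CPM in Cipc-flox/flox over the 76 genes. Rpl41 was highest, at 12348 CPM per kilobase in Cipc-scko against 13186 in Cipc-flox/flox, on a coding sequence of only 75 bases. Rplp1 came next in Cipc-scko, at 4313 CPM per kilobase there and 2281 in Cipc-flox/flox, followed by Rpsa at 3364 in Cipc-scko against 1903 in Cipc-flox/flox. Rps15 stood at 3164 CPM per kilobase in Cipc-scko against 2837 in Cipc-flox/flox. At the other end, 21 genes were under 100 CPM per kilobase in Cipc-scko, and 27 were in Cipc-flox/flox. Among them were Rps13, with 40 counts in Cipc-scko against 30 in Cipc-flox/flox, Rps23, with 76 in Cipc-scko against 41 in Cipc-flox/flox, and Rpl36, with 66 in Cipc-scko against 72 in Cipc-flox/flox. Adding the copies raised the median to 881 CPM per kilobase in Cipc-scko against 563 in Cipc-flox/flox, and left 13 genes under 100 in Cipc-scko, with 18 in Cipc-flox/flox.

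Levels were compared by number of annotated copies. The 39 genes with 6 or more annotated copies had a median of 229 CPM per kilobase in Cipc-scko against 54.9 in Cipc-flox/flox. The 35 genes with 1 to 5 copies had medians of 1037 in Cipc-scko against 687 in Cipc-flox/flox, and the 3 genes with none had medians of 500.3 in Cipc-scko against 411 in Cipc-flox/flox. Summed with copies in the table, the medians were 515 in Cipc-scko against 381 in Cipc-flox/flox for 6 or more copies, and 1203 in Cipc-scko against 700.4 in Cipc-flox/flox for 1 to 5 copies. The ratio between the libraries also varied with level: 28 genes with a mean under 100 CPM had a median log2 ratio of 0.24, 27 genes between 100 and 500 CPM had 0.68, and 21 genes of at least 500 CPM had 0.65. The deposited FPKM rank the genes differently, since the length they imply runs from 404 bases for Rpl36 to 11869 bases for Rps15a and exceeds the longest annotated transcript in 60 of 77 genes. By deposited FPKM the highest were Rplp1, at 2842 in Cipc-scko against 1652 in Cipc-flox/flox, and Rpl8, at 1848 in Cipc-scko against 2581 in Cipc-flox/flox.

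On all 18 autosomes that hold such genes, their median ratio lay above that of the other genes of the chromosome with at least 5 CPM. All 14 ribosomal protein genes on chromosome 7 lay above 0, with a median of 0.69, where the other genes of that chromosome had a median of 0.34. All 7 on chromosome 9 lay above 0, with a median of 0.82 against 0.18 for the other genes. On chromosome 15, where the other genes had the lowest median of any autosome, -0.69, Rpl8, Rpl30 and Rpl37 lay between -0.23 and -0.39 and Rpl3 at 3.16. Chromosome 10 held 4 genes with a median of 0.03, against -0.39 for its other genes, and chromosome 11 held 7 genes with a median of -0.05, against -0.17. These 5 chromosomes are described with their values known, and the part of chromosome position in the ratios was not tested.

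**Figure D4:**
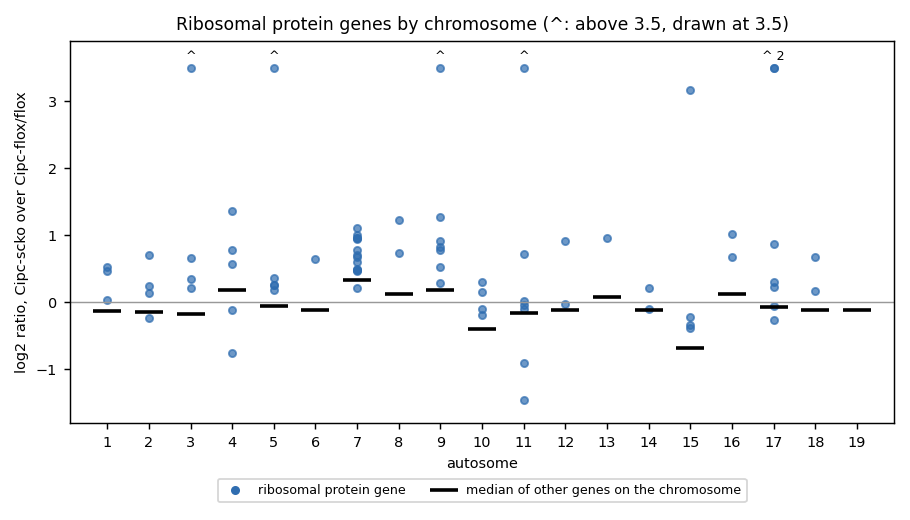
Log2 ratio, Cipc-scko over Cipc-flox/flox, for ribosomal protein genes (points) on each autosome, with the median of the other genes of at least 5 CPM on that chromosome (bars). The 6 genes above 3.5 are drawn at 3.5 with a mark, chromosome 19 holds no such gene, and the points of chromosome 7 lie all above 0 while 3 of 4 on chromosome 15 lie below.

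TOP tracts were looked for at annotated start sites. RefSeq start sites on GRCm38.p6 were available for 57 of the 77 genes. A tract was a C followed only by C or T, at least 5 bases long, read on the sense strand. It began at the annotated start itself in 13 of the 57 genes (22.8%), against 813 of 27025 genes in the table (3.01%). Within 5 bases of the start it was found in 28 genes (49.1%), against 21.2% of all genes and 24.6% of the 69 mitochondrial ribosomal protein genes matched. The start regions of 4 genes are shown, 15 bases on each side of the start where the tract is written in capitals: Rps18 (chr17:33955651-33955680, minus strand), Rpl15 (chr14:18270972-18271001, minus strand), Rps6 (chr4:86857353-86857382, minus strand) and Rplp2 (chr7:141447636-141447665, plus strand).
Rps18: tacgtcacttccgCTCTCTCTTCCacagga
Rpl15: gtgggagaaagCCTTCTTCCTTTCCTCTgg
Rps6: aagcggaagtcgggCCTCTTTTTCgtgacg
Rplp2: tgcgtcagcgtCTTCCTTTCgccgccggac
A match describes these letters only. The 13 genes with a tract at the start had a median log2 ratio of 0.48 and the 43 measured genes without one a median of 0.47, values that lie close together.

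Other genes of the translation machinery were set beside the family. The 8 cytosolic ribosomal protein genes outside the naming rule were close to the family, with a median of 0.41 and 0 called in either direction. Rack1, the scaffold protein on the small subunit, had 39167 counts in Cipc-scko against 23466 in Cipc-flox/flox (0.82), and the X-linked Rps4x had 18661 counts in Cipc-scko against 15184 in Cipc-flox/flox (0.37). The X-linked Rpl39 had 1716 counts in Cipc-scko against 1057 in Cipc-flox/flox (0.78), whereas Rpl36al lay at -0.20.

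The 36 genes of ribosome biogenesis, which process ribosomal RNA and assemble the subunits, lay mostly on the other side of 0, with a median of -0.38, 29 below 0, 0 called higher and 1 lower. Nhp2, of the pseudouridylation complex, had 1379 counts in Cipc-scko against 2982 in Cipc-flox/flox and was the 1 called lower (-1.04, -1.13 to -0.94). Nucleolin (Ncl) had 4162 counts in Cipc-scko against 8628 in Cipc-flox/flox (-0.98), and Rrp12 had 1413 in Cipc-scko against 927 in Cipc-flox/flox (0.68). The 78 mitochondrial ribosomal protein genes had a median of -0.05, with 1 called higher and 3 lower. Mrps6 had 441 counts in Cipc-scko against 2348 in Cipc-flox/flox (-2.34), and Mrpl23 had 525 in Cipc-scko against 262 in Cipc-flox/flox (1.08).

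Among 35 translation initiation factors the median was -0.23, with 2 called higher and 2 lower. Eif4a2, a helicase paralogue, had 3356 counts in Cipc-scko against 1073 in Cipc-flox/flox (1.72), and Eif5 had 1515 in Cipc-scko against 3872 in Cipc-flox/flox (-1.28). The X-linked Eif2s3x had 795 counts in Cipc-scko against 1997 in Cipc-flox/flox (-1.25). Of 8 elongation and release factors past the filter 2 were called higher: Eef1b2, with 15920 counts in Cipc-scko against 5988 in Cipc-flox/flox (1.49), and Eef1g, with 12349 in Cipc-scko against 4884 in Cipc-flox/flox (1.41). Eef1b2 exchanges nucleotides for Eef1a1, and Eef1g is a structural subunit of the same complex. Eef1d, another exchange subunit, named with its values known, had 2766 counts in Cipc-scko against 2858 in Cipc-flox/flox (0.03, -0.05 to 0.10). Eef1a1 had 147326 counts in Cipc-scko against 101990 in Cipc-flox/flox (0.61). The 16 other genes with TOP messenger RNAs, which overlap the factor lists, had a median of -0.05 with 3 called higher, among them Eif3f with 7981 counts in Cipc-scko against 3750 in Cipc-flox/flox (1.17). Pabpc1 lay at -0.71 and Nap1l1 at -0.79.

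Of 14 measured regulators of ribosomal protein synthesis 1 was called higher and 2 lower. Mycl, a Myc family transcription factor, had 981 counts in Cipc-scko against 146 in Cipc-flox/flox (2.82, 2.57 to 3.09). Larp4 had 764 counts in Cipc-scko against 2284 in Cipc-flox/flox (-1.50), and Eif4ebp2, an inhibitor of cap binding, had 677 in Cipc-scko against 1708 in Cipc-flox/flox (-1.26). Larp1, which binds TOP messenger RNAs, had 5289 counts in Cipc-scko against 5395 in Cipc-flox/flox (0.05, -0.01 to 0.10), and Mtor had 2050 in Cipc-scko against 1475 in Cipc-flox/flox (0.55). Against the 21.2% called higher and 15.9% called lower among all genes, the largest share among these lists was that of the elongation and release factors, 2 of 8 higher.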

How the data were processed

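Per the labels' protocols, the libraries are Illumina libraries of total RNA, prepared with a VAHTS Universal V6 kit. GRCm38, StringTie 1.3.0, HISAT2 2.0.4 and CASAVA stand in the submitters' processing notes, without roles. For the counting tool, its use of strand and reads with several matches, the entry is: not given in the sources used here. Per the file headers, the deposited values are counts (whole numbers, by Ensembl gene) and FPKM (a file for each library). Symbols came from GENCODE vM21 (16116 of 16190 identifiers).

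Counts were scaled with TMM factors (edgeR 4.0.16) and expressed as CPM. Log2 ratios used a prior count of 0.5 and a 95% interval from the Clopper-Pearson limits of how a gene's counts split. There is no p-value, since groups of 1 library have no replicate spread; depth was 16830168 and 16145870 counts. Copies were found with BLAST+ 2.17.0. Levels between genes used CPM per kilobase of the principal coding sequence (stop codon not counted). Genes were named by rule: called, the 6 highest and 6 lowest, the 5 highest by FPKM, those with a copy holding at least 10% of the sum, paralogues, stalk genes and a few others; further genes (such as Rps3, Rps13, Rps14, Rps15, Rps21, Rps23, Rps29, Rpl4, Rpl19, Rpl30, Rpl32 and the copies) were picked with their values known. Values of 3 genes are not reported singly here. Ribosomal protein genes and lists were chosen with earlier results of these data known. Alternatives were other scalings including DESeq2 1.42.0 size factors, other filters, prior counts and fold limits, FPKM, and counts summed with copies.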

Additional observations from a re-analysis of the deposited data

How the results depend on the processing

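The median log2 ratio of the ribosomal protein genes stayed above 0 in all alternatives. It was 0.35 by FPKM (pseudocount of 0.1 or 1), 0.35 with scaling by totals, 0.61 for the 2 measured genes without annotated copies and 0.66 for the 47 with no copy in the table. With totals the median over all genes shifted by -0.14, and 50.8% of all calls were then higher, against 57.1% with TMM. The summed log2 ratio was 0.43 by FPKM (either pseudocount), 0.50 by totals, 0.62 by DESeq2 size factors, 0.68 by the upper quartile and 0.47 with copies at 95% or 90% identity.

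The count called higher was 34 at a fold limit of 1.5 (29% of all genes) and 7 at 4 (12.5% of all genes). It was 0 of 2 genes without annotated copies. With TMM and the 2-fold limit, 21.2% of all genes were called higher and 15.9% lower. The count called lower was 3 at 1.5 (25.8% of all genes), 0 at 4 (6.68% of all genes), 2 by totals (with Rpl23a), 2 with summed copies at either identity, and 0 among genes with no annotated copy or no copy in the table. Summed with copies at either identity, the ratio of Rpl27 became 0.095, that of Rps18 -1.65 and that of Rps2 -0.22; the cause was not tested. Single-gene values were recomputed only for the 45 genes named by rule. Of these 495 values 18 lost the call and 10 gained it without a change of sign. Among them 14 values, in 7 genes, changed sign, all on summing with copies: besides Rpl27, Rps18 and Rps2, Rps26 became -0.05, Rpl36 0.01, Rpl11 0.18 and Rpl23a 0.36 at either identity. Genes outside this set could also change sign: Rpl19, at 0.02 by counts, had a deposited FPKM of 187 in Cipc-scko against 202 in Cipc-flox/flox. Rpl29 fell to 7.5 with copies at 90% identity.

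No paired analysis was possible because each group has 1 library, and leaving out a replicate was not possible either. Low counts of their own limit genes at or under about 100 counts, such as Rps13, Rps23, Rps27, Rps29, Rpl9, Rpl11, Rpl23a and Rpl36. For Rps27, Rpl9, Rpl11 and Rpl23a most of the summed counts stood on copies in both libraries.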

Other observations

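3 further genes were picked with their values known. Gas5, a host gene of small nucleolar RNAs whose transcript carries a TOP tract, had 1706 counts in Cipc-scko against 97 in Cipc-flox/flox (4.21, 3.92 to 4.52), a ratio larger than that of all but 6 of the 76 ribosomal protein genes. BC004004, a protein-coding gene, was not among the copies found for Rpl21. It had 1983 counts in Cipc-scko against 1494 in Cipc-flox/flox (0.48, 0.39 to 0.58). Gm45713, which overlaps Rpl13a, had 97 counts in Cipc-scko against 58 in Cipc-flox/flox (0.81, 0.33 to 1.31).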
